A study of Homo sapiens with 9 samples.

Results

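The genes described here are 8 phosphatase genes that act on the lipid products of PI 3-kinase or on the kinase AKT: INPP5D, INPPL1, INPP5E, INPP5K, INPP4A, INPP4B, PHLPP1 and PHLPP2. They were listed by name and were found among the 60609 counted genes by matching each gene identifier, without its version, to its GENCODE symbol. The samples were MCF-10A cells, an established human breast epithelial line that does not form tumours, in 3 genotypes with 3 RNA libraries for each. The WT group was the parental line, and the E545K and H1047R groups were isogenic knock-in lines with the named substitution in PIK3CA, which encodes the catalytic alpha subunit of PI 3-kinase. According to the labels, routine medium for every line held 5% horse serum, insulin, hydrocortisone and cholera toxin. It held epidermal growth factor (EGF) at 20 ng/ml for WT and at 0 ng/ml for both knock-in lines. For the final 24 h before RNA was collected, all lines were in 1 common medium, with EGF at 0.2 ng/ml and serum, stripped with charcoal, at 1%. EGF history therefore changed with genotype in each comparison against WT, and the 2 cannot be told apart. The labels do not say whether a knock-in line is a single clone, nor whether separate cultures gave the 3 libraries of a group. The p-values thus speak only of the spread among the libraries at hand, which may be technical. The fit to all 9 libraries pools that spread over the 3 groups.

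PI 3-kinase adds a phosphate to a membrane lipid to make PI(3,4,5)P3, which brings AKT to the membrane, where PDPK1 and the mTOR complex switch it on by phosphorylation. Phosphatases undo this in steps: 5-phosphatases turn PI(3,4,5)P3 into PI(3,4)P2, a lipid that can still bind AKT, 4-phosphatases turn PI(3,4)P2 into PI(3)P, and PHLPP enzymes remove a phosphate from AKT itself. In breast epithelium INPP4B is best known as a gene whose loss accompanies basal-like tumours, while INPP5D is best known from blood cells.

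Total counts were between 95091894 and 136132315 in the WT and E545K libraries and between 377093507 and 605972919 in H1047R, so that each of the 8 genes had at least 1536 counts in every library. The H1047R libraries were deposited in a table of their own, and table and genotype cannot be told apart for them. They also differed in makeup: genes of the class misc_RNA took 8.54% to 8.87% of their counts, against 4.59% to 4.90% elsewhere, and the biological coefficient of variation over all genes was 0.215 within H1047R, 0.0328 within WT and 0.0288 within E545K. Listed markers of basal breast epithelium and of epithelium in general, the latter including CDH1 and EPCAM, were present in every group. In each, 8 of 8 were at or above 1 CPM (counts scaled to 1000000 per library, on the TMM-scaled library size). Their summed level was 30158 to 30800 CPM in WT, 24773 to 25275 in E545K and 27642 to 31370 in H1047R. Most of that sum is KRT5 (13940, 12965 and 16289 CPM) and KRT17 (12655, 8834 and 10347 CPM). Against WT, 0 of the 8 rose and 7 fell in E545K, and 2 rose and 5 fell in H1047R. Of all tested genes, 17.7% rose and 18.9% fell in E545K, and 27.4% rose and 28.1% fell in H1047R. Of 7 luminal markers, 6 reached 1 CPM in each group, and their summed level was 1389 to 1483 CPM in WT, 536 to 545.3 in E545K and 423 to 526 in H1047R. Most of that sum is KRT8 (997, 239 and 258 CPM) and KRT18 (383, 266 and 148 CPM), while GATA3 was highest in H1047R (21.6, 17.97 and 45.4 CPM) and FOXA1 in E545K (3.73, 9.28 and 3.60 CPM). Their part in the results below was not tested. Fibroblast markers reached 1 CPM only for COL1A1 (47.4, 59.5 and 66.6 CPM in WT, E545K and H1047R) and endothelial markers only for KDR (8.66, 10.7 and 22.5 CPM), which rose in all 3 comparisons. In bulk RNA, fewer cells of a type and less RNA per cell cannot be told apart.

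Promoter sequence is shown for the 2 genes that rose most, INPP5D and INPP4B, and for INPPL1, the closest relative of INPP5D, which fell. Windows were the 250 bases before the RefSeq start site of each gene on GRCh38.p14, on the strand of the gene and written 5′ to 3′. The window of INPP5D lay entirely within an exon of a longer transcript of the same gene, so for it only the stretches around its motif matches are printed, at chr2:233060270-233060296 and chr2:233060320-233060341. Capitals mark AGGAAGT, the core bound by factors of the ETS family. The INPPL1 window was chr11:72224517-72224766, and the INPP4B stretch, chr4:142846332-142846551 on the minus strand, is the 220 bases of its window that lay outside exons. Both lay inside the annotated span of their gene, which begins further upstream than the start site used.
INPP5D, first match: ttctgtaatgAGGAAGTtctccgcagc
INPP5D, second match: cgcctgaaacAGGAAGTcagtc
INPP4B: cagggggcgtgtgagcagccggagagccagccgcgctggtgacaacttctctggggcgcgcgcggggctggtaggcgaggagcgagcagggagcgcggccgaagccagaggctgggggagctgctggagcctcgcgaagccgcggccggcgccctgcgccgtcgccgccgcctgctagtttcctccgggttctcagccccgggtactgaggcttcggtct
INPPL1: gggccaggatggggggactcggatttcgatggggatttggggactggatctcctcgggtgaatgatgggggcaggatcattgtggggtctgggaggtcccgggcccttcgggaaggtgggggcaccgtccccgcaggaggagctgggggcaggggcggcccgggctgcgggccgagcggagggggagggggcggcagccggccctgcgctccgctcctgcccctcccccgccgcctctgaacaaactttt
The motif was picked after the sequences had been seen. AGGAAGT, searched on both strands, was found in 7.01% of 34786 promoter windows of this length and at least 2 times in 0.362%. Among the 8 genes it was found in INPP5D alone, 2 times. TGANTCA (AP-1), GTAAACA (forkhead) and CACGTG (E-box), which occur in 6.59%, 2.98% and 6.31% of windows, had 0 matches in the windows of all 8 genes. GC content was 70.8% for INPP4B, 71.6% for INPPL1 and 59.2% for INPP5D, beside a median of 58.0% over all windows, and CpG dinucleotides numbered 27, 18 and 9, beside a median of 11. The window of PHLPP2 was the poorest in GC of the 8, at 37.2% with 5 CpG. A match describes the letters only, and binding was not measured.

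INPP5D and INPPL1 encode SHIP1 and SHIP2, the SH2-domain enzymes that remove the 5-phosphate of PI(3,4,5)P3. INPP5D (ENSG00000168918.14, chr2:233059967-233207903, plus strand) stood at 67.2, 69.3 and 68.3 CPM in the WT libraries. Its level was 172, 177 and 180 CPM in E545K and 208, 200 and 198 CPM in H1047R. All 6 knock-in libraries lay above all WT libraries, and the H1047R libraries lay above those of E545K. INPP5D rose 2.58-fold in E545K against WT, a log2 fold change of 1.37 ± 0.04 (SE), with an adjusted p of 2.54e-12 in edgeR's quasi-likelihood test with Benjamini-Hochberg adjustment over 26412 genes, which is also the test behind the other adjusted p-values. In H1047R it rose 2.96-fold (1.56 ± 0.04, adjusted p = 1.65e-13). A larger absolute change was seen in 6.32% of tested genes in E545K and in 11.01% in H1047R. H1047R exceeded E545K by 0.19 ± 0.04 (adjusted p = 5.39e-04), but with libraries scaled by their total counts alone this difference was 0.06 (adjusted p = 0.125).

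Because INPP5D is mostly studied in leukocytes, their markers were measured beside it. Of 10 leukocyte markers, 1 reached 1 CPM in WT, 1 in E545K and 2 in H1047R, and their summed level was 5.48 to 6.42, 5.43 to 6.11 and 3.82 to 4.66 CPM. The defining markers were at or near 0: PTPRC, the common leukocyte antigen CD45, was at most 0.0892 CPM in any library, and SPI1, a blood-lineage transcription factor, at most 0.0742. CD14 had 5.16, 5.03 and 2.53 CPM in WT, E545K and H1047R. ITGAM, an integrin subunit of myeloid cells, had 0.36, 0.47 and 1.496 CPM. Across the groups, ITGAM was thus highest and CD14 lowest in H1047R, where INPP5D was highest, and their part in the INPP5D level was not tested.

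INPPL1 (ENSG00000165458.14, chr11:72223701-72239147, plus strand) went the other way. Its WT libraries had 210, 215 and 213 CPM. In E545K they had 137, 133 and 133 CPM, and in H1047R 133, 148 and 139 CPM. Every knock-in library was below every WT library, and the knock-in groups overlapped each other. In E545K, INPPL1 fell by 0.66 ± 0.04 (log2, adjusted p = 1.57e-08), and it fell by 0.60 ± 0.04 in H1047R (adjusted p = 1.50e-08). Between the knock-in lines the difference was 0.06 ± 0.04 (95% interval -0.04 to 0.15, adjusted p = 0.287). Antisense exons of PHOX2A cover 1.08% of its counted bases, and counting did not use strand.

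**Figure D1:**
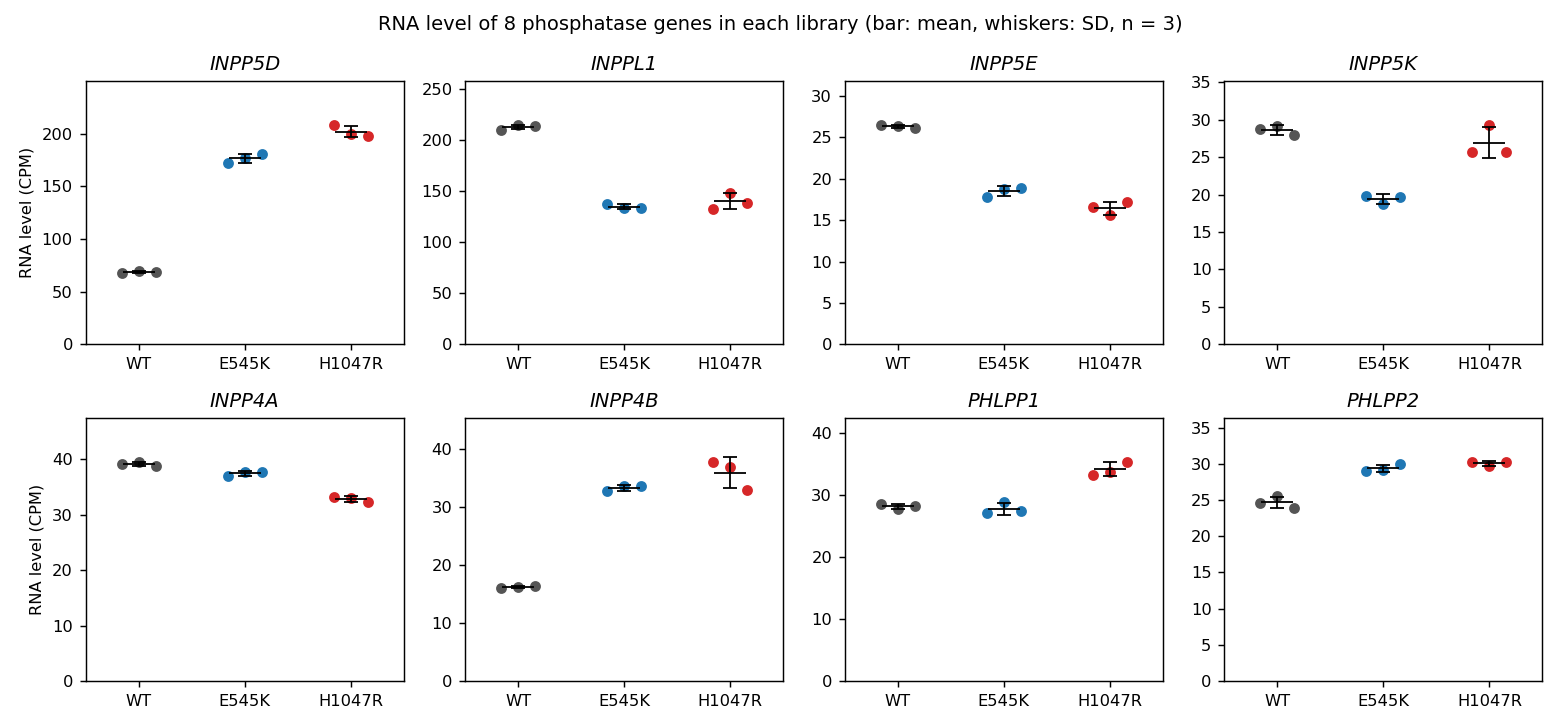
RNA level of each of the 8 genes (vertical axes, CPM, starting at 0) in the 3 libraries of WT, E545K and H1047R. Points are libraries, the long bar is the mean and whiskers are the SD (n = 3). INPP5D and INPP4B lie higher in all 6 knock-in libraries than in WT, INPPL1 and INPP5E lie lower, and INPP5K is low in E545K alone.

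INPP5E and INPP5K are 5-phosphatases with other places of work: INPP5E keeps the membrane of the primary cilium poor in PI(4,5)P2, and INPP5K (SKIP) acts at the endoplasmic reticulum and at membrane ruffles. INPP5E (ENSG00000148384.13, chr9:136428619-136439845, minus strand) had 26.5, 26.3 and 26.2 CPM in WT. The E545K libraries had 17.9, 18.8 and 18.9 CPM and the H1047R libraries 16.6, 15.6 and 17.2 CPM. The 3 groups did not overlap, with WT on top and H1047R at the bottom. INPP5E fell by 0.51 ± 0.05 in E545K (log2, adjusted p = 1.30e-06) and by 0.68 ± 0.05 in H1047R (adjusted p = 1.66e-08). H1047R was below E545K by a log2 difference of -0.17 ± 0.05 (adjusted p = 9.13e-03). That last call was lost when only protein-coding genes were used for scaling and testing (-0.10, adjusted p = 0.0887), with upper-quartile scaling (-0.12, adjusted p = 0.0605) and with no filter on low counts (-0.13, adjusted p = 0.0885).

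INPP5K (ENSG00000132376.20, chr17:1494577-1516742, minus strand) separated the knock-in lines. It had 28.8, 29.2 and 27.9 CPM in WT and 19.9, 18.7 and 19.7 CPM in E545K. The H1047R libraries had 25.8, 29.3 and 25.7 CPM. The E545K libraries were thus the lowest of the 9, while H1047R overlapped WT through its replicate 2. In E545K, INPP5K fell by 0.56 ± 0.06 (log2, adjusted p = 1.85e-06). In H1047R the difference from WT was -0.09 ± 0.06 (95% interval -0.21 to 0.03, adjusted p = 0.181), and without H1047R replicate 2 it was -0.15 (adjusted p = 0.0191). H1047R exceeded E545K by 0.47 ± 0.06 (adjusted p = 4.99e-06).

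INPP4A and INPP4B are the 4-phosphatases that remove PI(3,4)P2. INPP4B (ENSG00000109452.12, chr4:142023160-142847432, minus strand) had the lowest level per kb of exon of the 8 genes in WT and had 16.1, 16.2 and 16.4 CPM there. It had 32.8, 33.6 and 33.6 CPM in E545K and 37.9, 37.0 and 32.9 CPM in H1047R. All knock-in libraries stood clear of WT, and H1047R replicate 3 lay within the range of E545K. INPP4B rose 2.05-fold in E545K (log2 fold change 1.04 ± 0.05, adjusted p = 1.49e-09) and 2.21-fold in H1047R (1.14 ± 0.05, adjusted p = 1.32e-10). A larger absolute change was found for 10.9% of tested genes in E545K and 17.6% in H1047R. The difference between the knock-in lines was 0.11 ± 0.05 (95% interval -0.00 to 0.22, adjusted p = 0.0918), and without H1047R replicate 3 it was 0.17 (adjusted p = 1.17e-03). With all 9 libraries, it passed with upper-quartile scaling (0.15, adjusted p = 4.29e-03) and with protein-coding genes only (0.17, adjusted p = 1.51e-03). It also passed with no low-count filter (0.15, adjusted p = 0.0230) and with at least 1 CPM required in every library of a group (0.13, adjusted p = 7.46e-03). Scaling by library totals alone gave -0.030 (adjusted p = 0.529).

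INPP4A (ENSG00000040933.15, chr2:98444854-98594390, plus strand) had 39.2, 39.6 and 38.9 CPM in WT. Its levels were 37.0, 37.7 and 37.8 CPM in E545K and 33.2, 33.1 and 32.3 CPM in H1047R. The groups did not overlap, but the steps were small. In E545K the log2 difference from WT was -0.07 ± 0.04 (95% interval -0.15 to 0.02, adjusted p = 0.208), and with libraries scaled by their totals alone it changed sign to 0.027. INPP4A fell by 0.26 ± 0.04 in H1047R against WT (adjusted p = 3.94e-05), and the log2 difference of H1047R from E545K was -0.19 ± 0.04 (adjusted p = 6.63e-04).

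PHLPP1 and PHLPP2 encode the PH-domain phosphatases that take a phosphate off the C-terminal hydrophobic motif of AKT and of protein kinase C. PHLPP1 (ENSG00000081913.14, chr18:62715541-62980433, plus strand) had 28.5, 27.7 and 28.3 CPM in WT and 27.1, 28.8 and 27.4 CPM in E545K. In H1047R it had 33.2, 33.8 and 35.4 CPM. WT and E545K overlapped, and all H1047R libraries were above both. PHLPP1 rose by 0.28 ± 0.04 in H1047R against WT (log2, adjusted p = 7.53e-05) and was higher there than in E545K by 0.30 ± 0.04 (adjusted p = 4.19e-05). E545K and WT differed by -0.02 ± 0.04 (95% interval -0.12 to 0.07, adjusted p = 0.758), and with scaling by library totals alone the value changed sign to 0.071.

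PHLPP2 (ENSG00000040199.18, chr16:71637835-71724701, minus strand) rose in both knock-in lines. It had 24.6, 25.5 and 23.9 CPM in WT, 29.1, 29.1 and 29.9 CPM in E545K and 30.3, 29.7 and 30.3 CPM in H1047R. Both knock-in groups lay above WT and overlapped each other. The rise was 0.25 ± 0.04 in E545K (log2, adjusted p = 2.87e-04) and 0.29 ± 0.04 in H1047R (adjusted p = 3.43e-05). H1047R minus E545K was 0.04 ± 0.04 (95% interval -0.05 to 0.13, adjusted p = 0.494). Of its counted bases, 11.01% overlap exons of other genes on the opposite strand, mainly MARVELD3, and what share of its counts came from them was not measured.

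The comparison of E545K with WT asks how the levels of these genes differ between the line with the helical-domain change, kept without EGF, and the parental line, kept with it. In E545K, INPP5D, INPP4B and PHLPP2 rose and INPPL1, INPP5K and INPP5E fell, while INPP4A and PHLPP1 did not pass the test. These 6 of 8 genes (75%) stand beside 36.6% of all tested genes called in the same comparison. All tested genes split into 17.7% higher and 18.9% lower. A change of at least 2-fold was called for 2 of the 8, against 7.10% of all genes. Libraries of the 2 groups did not overlap for 7 of the 8, against 54.2% of all genes. The median log2 fold change was -0.04 over the 8 genes and 0.00 over all tested genes, so the set moved in both directions.

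The comparison of H1047R with WT asks the same of the line with the kinase-domain change, for which EGF history and the separate table both go with the genotype. INPP5D, INPP4B, PHLPP2 and PHLPP1 rose, INPP5E, INPPL1 and INPP4A fell, and INPP5K did not pass the test. This makes 7 of 8 (87.5%), beside 55.5% of all tested genes, of which 27.4% were higher and 28.1% lower. Again 2 of the 8 were called with at least a 2-fold change, against 17.4% of all genes. For 7 of the 8 the libraries did not overlap, against 60.1% of all genes. The medians were 0.09 over the 8 genes and 0.02 over all genes. Both comparisons use the same WT libraries, so their values side by side are not independent of each other.

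The direct comparison of the knock-in lines asks whether the levels of these genes differ between the 2 lines. Per the labels their culture conditions were the same. The separate table of H1047R again goes with the genotype, and the 2 cannot be told apart. INPP5K, PHLPP1 and INPP5D were higher in H1047R, INPP4A and INPP5E were lower, and INPP4B, INPPL1 and PHLPP2 did not pass the test. The 5 called of 8 (62.5%) compare with 53.2% of all tested genes (25.9% higher, 27.3% lower). A call with at least a 2-fold change was made for 0 of the 8, against 15.0% of all genes. Libraries did not overlap for 5 of the 8, against 58.8% of all genes, and the medians were 0.08 and 0.02. Scaling by library totals alone shifts the median of all genes by -0.14 in this comparison. Under it INPP4B (-0.030), INPPL1 (-0.079) and PHLPP2 (-0.10) change sign without passing the test. With protein-coding genes only, INPP4B (0.17), INPPL1 (0.12) and PHLPP2 (0.10) passed the test with the sign of the main fit.

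**Figure D2:**
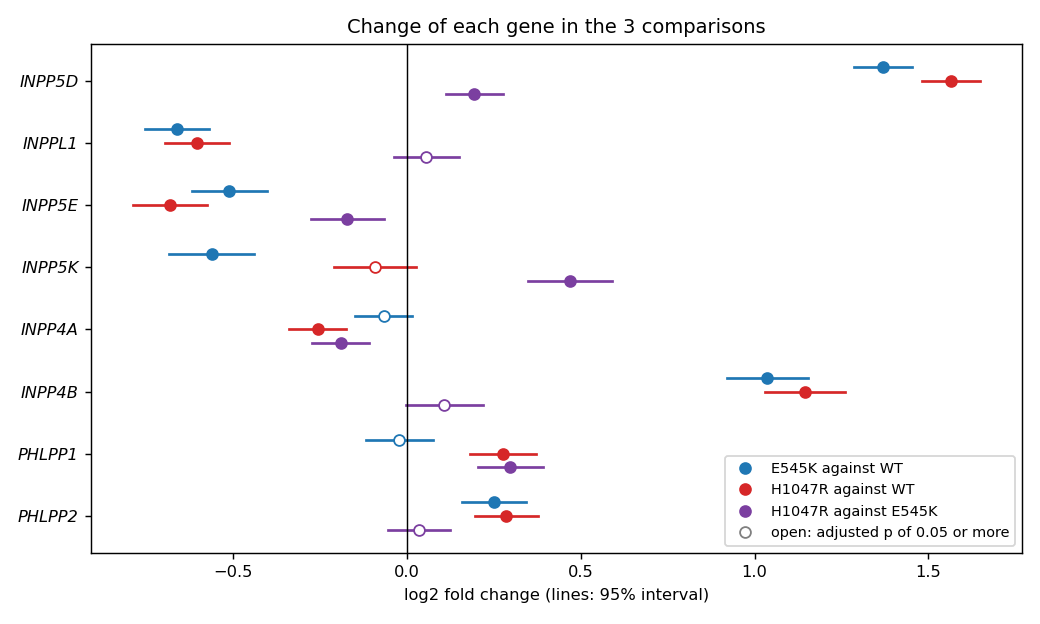
Log2 fold change of each of the 8 genes (horizontal axis) in E545K against WT (blue), H1047R against WT (red) and H1047R against E545K (purple). Lines are 95% intervals, filled points have an adjusted p under 0.05 and open points do not. INPP5D and INPP4B lie beyond 1 against WT in both knock-in lines, and the largest difference between the knock-in lines is that of INPP5K, at 0.47.

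Levels of different genes were compared as CPM per kb of counted exon. That length takes in all annotated exons of a gene, and which transcripts were present was not measured. The order, ratios, shares and sums across genes depend on that choice of length. In WT the order was INPPL1 (32.3), INPP5D (7.86), INPP5K (5.54), INPP5E (4.05), PHLPP1 (3.11), INPP4A (2.98), PHLPP2 (1.98) and INPP4B (1.15), and the libraries of all neighbours in this order stood apart. In E545K, INPPL1 (20.5) and INPP5D (20.3) overlapped at the top, above INPP5K (3.76) and PHLPP1 (3.07). Below them INPP5E (2.84) and INPP4A (2.84) overlapped, as did INPP4B (2.36) and PHLPP2 (2.35). In H1047R, INPP5D (23.3) was first and INPPL1 (21.3) second, with their libraries narrowly apart, followed by INPP5K (5.20) and PHLPP1 (3.77). INPP4B (2.54), INPP5E (2.53) and INPP4A (2.49) overlapped, and PHLPP2 had the lowest mean (2.41), though INPP4B replicate 3 (2.33) lay below all of its libraries. INPP4B and PHLPP2, apart in WT, thus overlapped in both knock-in lines, and the SHIP genes, far apart in WT, stood close together in both.

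On this per-kb scale, the SHIP pair changed in makeup more than in sum. The per-kb ratio of INPP5D to INPPL1 was 0.243 ± 0.00114 (SD, n = 3) in WT. It was 0.993 ± 0.0403 in E545K and 1.10 ± 0.0853 in H1047R. The libraries of each knock-in group lay above those of WT, while those of the knock-in groups overlapped. A two-sided exact permutation test of 3 against 3 libraries cannot go below p = 0.1 and so cannot pass a threshold of 0.05. It gave p = 0.1 for each knock-in group against WT and, again by the exact test, p = 0.2 between the knock-in groups. INPP5D made up 19.6% of the summed per-kb level of the pair in WT, 49.8% in E545K and 52.2% in H1047R. The sum (mean ± SD, n = 3) was 40.2 ± 0.478 CPM per kb in WT, 40.8 ± 0.198 in E545K and 44.5 ± 0.921 in H1047R. A level of RNA says nothing of enzyme activity, which was not measured.

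The other pairs shifted less. INPP4B over INPP4A was 0.386 in WT, 0.829 in E545K and 1.02 in H1047R, with libraries apart for each pair of groups (exact permutation p = 0.1, the smallest possible), and the 4-phosphatase sum was 4.12, 5.20 and 5.03 CPM per kb. PHLPP1 over PHLPP2 was 1.58, 1.31 and 1.57. Its exact permutation p-values were 0.1 for E545K against WT, 0.8 for H1047R against WT and 0.1 for H1047R against E545K. The PHLPP sum was 5.09, 5.42 and 6.18 CPM per kb, and that of INPP5E and INPP5K was 9.59, 6.60 and 7.73. Over all 8 genes the summed level (mean ± SD, n = 3) was 59.0 ± 0.523 in WT, 58.0 ± 0.359 in E545K and 63.5 ± 1.23 in H1047R. Most of this total is the SHIP pair (40.2, 40.8 and 44.5 CPM per kb), so it says little of the other genes, whose sums above moved in both directions.

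**Figure D3:**
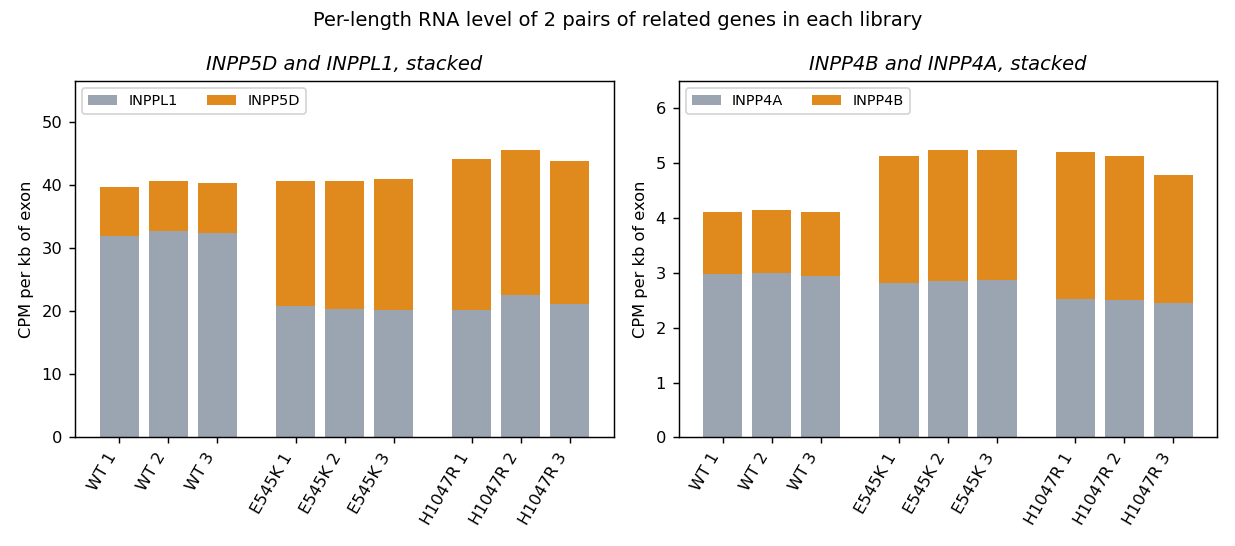
Per-length RNA level (vertical axes, CPM per kb of exon, starting at 0) of INPPL1 and INPP5D (left) and of INPP4A and INPP4B (right), stacked, 1 bar for each of the 9 libraries. INPP5D takes 19.6% of the SHIP stack in WT and 49.8% in E545K, and INPP4B takes 27.9% of the 4-phosphatase stack in WT and 45.3% in E545K.

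Other genes of phosphoinositide turnover were counted in lists, whose medians stand beside the 0.00 (E545K) and 0.02 (H1047R) of all genes against WT. The counts stand beside 17.7% of all tested genes called higher and 18.9% lower in E545K, and 27.4% higher and 28.1% lower in H1047R. Among 9 other 5-phosphatases and SAC-domain phosphatases, 2 rose and 3 fell in E545K, and 2 rose and 5 fell in H1047R (medians -0.08 and -0.17). SYNJ1, a phosphatase of synaptic and endocytic vesicles, rose by 0.64 in E545K and 0.77 in H1047R on the log2 scale, and pairs of values below keep this order. INPP5A, which acts on soluble inositol phosphates, fell, with log2 fold changes of -0.40 and -0.63. Of 15 myotubularins, the 3-phosphatases of endosomal lipids and their inactive relatives, 2 rose and 7 fell in E545K, and 4 rose and 9 fell in H1047R (medians -0.03 and -0.18), beside 18.9% and 28.1% of all genes called lower. MTMR11 fell, with log2 fold changes of -0.86 and -1.36. Of 6 soluble inositol phosphate phosphatases, 2 rose and 1 fell in E545K, and 3 rose and 1 fell in H1047R (medians 0.04 and 0.16). INPP1, which acts on soluble inositol bisphosphate, rose by 0.43 and 0.37.

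On the side of the kinases, 6 of 9 class I PI 3-kinase subunits passed the low-count filter. In E545K 2 rose and 2 fell, and in H1047R 4 rose and 2 fell (medians 0.03 and 0.15). The regulatory subunit PIK3R3 had 35.1 CPM in WT, 73.2 in E545K and 98.6 in H1047R, rises of 1.06 and 1.49, and PIK3R1 rose by 0.37 and 0.95. The catalytic subunit PIK3CD fell, with log2 fold changes of -0.86 and -0.47. PIK3CA itself had 46.1, 38.1 and 42.7 CPM, and counts per gene cannot tell its alleles apart. Of 5 class II and III enzymes, 3 rose and 1 fell in E545K, and 2 rose in H1047R (medians 0.20 and 0.08). Of 11 PI4- and PIP-kinases, 2 rose and 4 fell in each comparison (medians -0.01 and -0.02). Among the falls was PIP5K1C, a kinase that makes PI(4,5)P2 (-0.39 and -0.30).

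A list of 7 genes held AKT genes, the kinases that switch AKT on, and the mTOR complex subunit MLST8, which is not a kinase. Of these, 1 rose and 5 fell in E545K, and 2 rose and 5 fell in H1047R (medians -0.24 and -0.19), where 36.6% and 55.5% of all tested genes were called in either direction. AKT1 fell (-0.30 and -0.49), as did AKT2 (-0.26 and -0.37). MTOR, the kinase of both mTOR complexes, rose by 0.44 and 0.35. PDPK1 fell by 0.13 in E545K and rose by 0.31 in H1047R. Of 6 proteins that bind PI(3,4)P2, the product of the SHIP enzymes, 4 fell and 0 rose in E545K, and 3 fell and 2 rose in H1047R (medians -0.17 and -0.07). PLEKHA2, an adaptor of this kind, fell, with log2 fold changes of -0.23 and -0.41.

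The next lists concern proteins near the PHLPP and SHIP enzymes and INPP5E. Of 13 subunits of PP2A, another phosphatase that acts on AKT, 7 rose and 0 fell in E545K, and 7 rose and 4 fell in H1047R (medians 0.14 and 0.12), beside 17.7% and 27.4% of all genes called higher. Its scaffold subunit PPP2R1B rose by 0.44 and 0.41. Of 8 PHLPP scaffolds and stability factors, 2 rose and 2 fell in E545K, and 4 rose and 1 fell in H1047R (medians -0.03 and 0.10). FKBP5, a chaperone that links PHLPP to AKT, had 907, 881 and 1274 CPM and rose by 0.49 in H1047R. Of 5 other PHLPP substrates, 4 passed the filter, with 0 calls in E545K and 1 rise and 1 fall in H1047R (medians 0.05 and -0.04). Of 6 ciliary partners of INPP5E, 2 rose and 2 fell in E545K, and 1 rose and 3 fell in H1047R (medians 0.08 and -0.28). ARL3, which releases INPP5E into the cilium, fell, with log2 fold changes of -0.40 and -0.92. Of 10 binding partners of the SHIP proteins, 9 passed the filter, of which 1 rose and 3 fell in E545K and 1 rose and 5 fell in H1047R (medians -0.01 and -0.26). FLNA, the actin crosslinker that binds SHIP2, had 3472 CPM in WT, 1763 in E545K and 1115 in H1047R and fell, with log2 fold changes of -0.98 and -1.64.

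**Figure D4:**
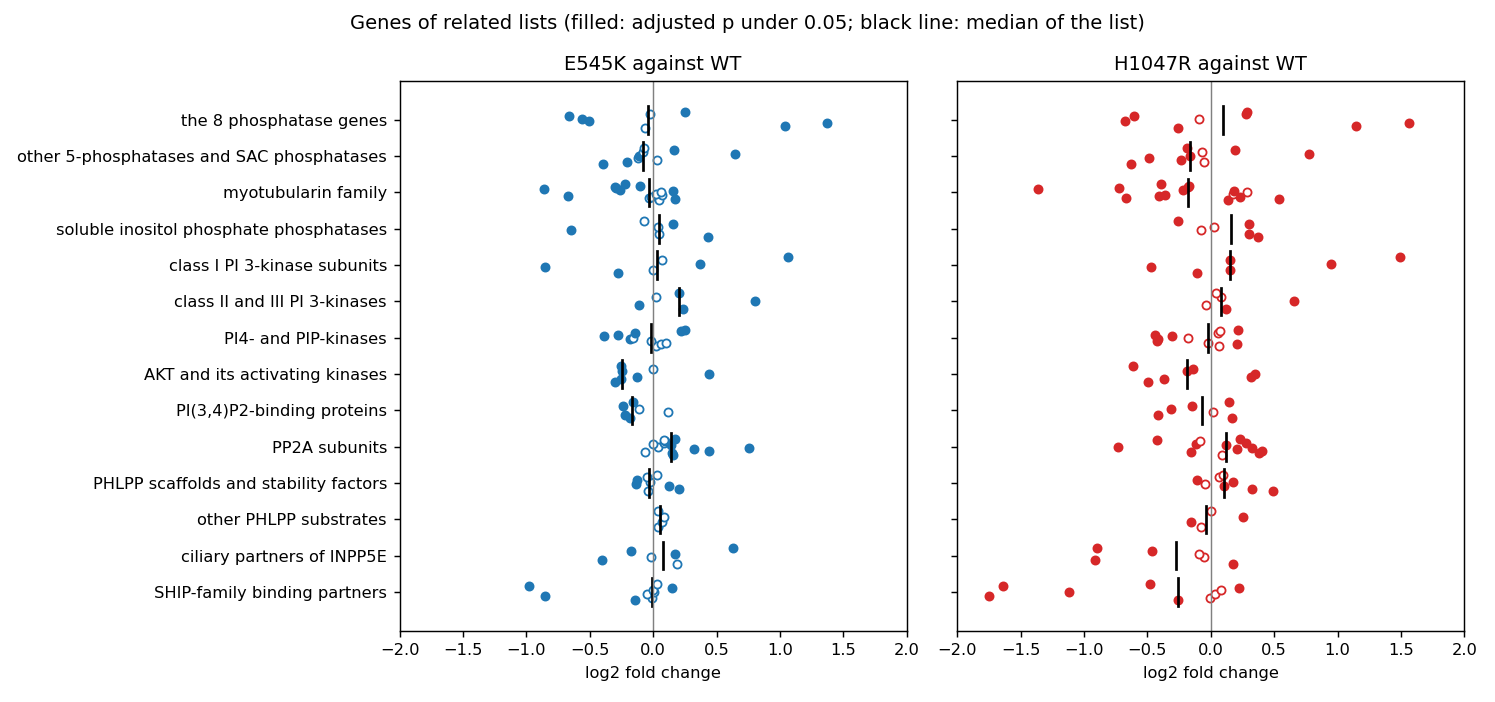
Log2 fold change (horizontal axes) of every tested gene of the 8 phosphatases and of 13 related lists, in E545K against WT (left) and H1047R against WT (right). Filled points have an adjusted p under 0.05, and the black line is the median of a list. INPP5D lies furthest right of all genes drawn in both panels, and the list of AKT and its activating kinases has medians of -0.24 and -0.19.

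For each gene, the protein-coding genes whose centred log2 CPM over the 9 libraries lay nearest were looked up among 12825 genes, with the root mean square difference as the measure. For INPP5D they were RDH16 (0.0547) and TIGAR (0.0842), and for INPP4B LTBP2 (0.0493) and PGBD5 (0.0646). For INPPL1 they were SUN2 (0.0357) and RNPEPL1 (0.0370). INPP5E was nearest to BCAT2 (0.0366) and CD81 (0.0419), and INPP5K to ATXN3 (0.0440) and STARD13 (0.0459). INPP4A was nearest to PIH1D1 (0.0209) and MAST2 (0.0244). PHLPP1 was nearest to DICER1 (0.0247) and ARID1B (0.0306), and PHLPP2 to ZNF517 (0.0201) and SLC4A7 (0.0276). INPP5D and INPP4B had the most distant matches. The likeness is a description of 9 libraries in 3 groups.

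The tested genes within 5 Mb on either side give the local background of each change. Around INPP5D there were 107, with a median log2 fold change of 0.08 in E545K and -0.02 in H1047R, and 3 of them were higher than INPP5D in each. Around INPP4B there were 59, with medians of 0.12 and 0.14, of which 3 and 9 were higher. Both genes thus lay far above most of their neighbours. Medians around INPPL1 (175 genes, -0.10 and -0.12) and INPP5E (168 genes, -0.06 and -0.07) were below 0 by much less than the genes themselves. INPP5K (-0.56 and -0.09) had 165 neighbours with medians of 0.03 and 0.08. PHLPP1 (-0.02 and 0.28) had 49 with a median of 0.17 in each comparison. INPP4A (-0.07 and -0.26) had 88 with medians of 0.02 and 0.08. PHLPP2 (0.25 and 0.29) had 242 with medians of -0.01 and -0.002.

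**Figure D5:**
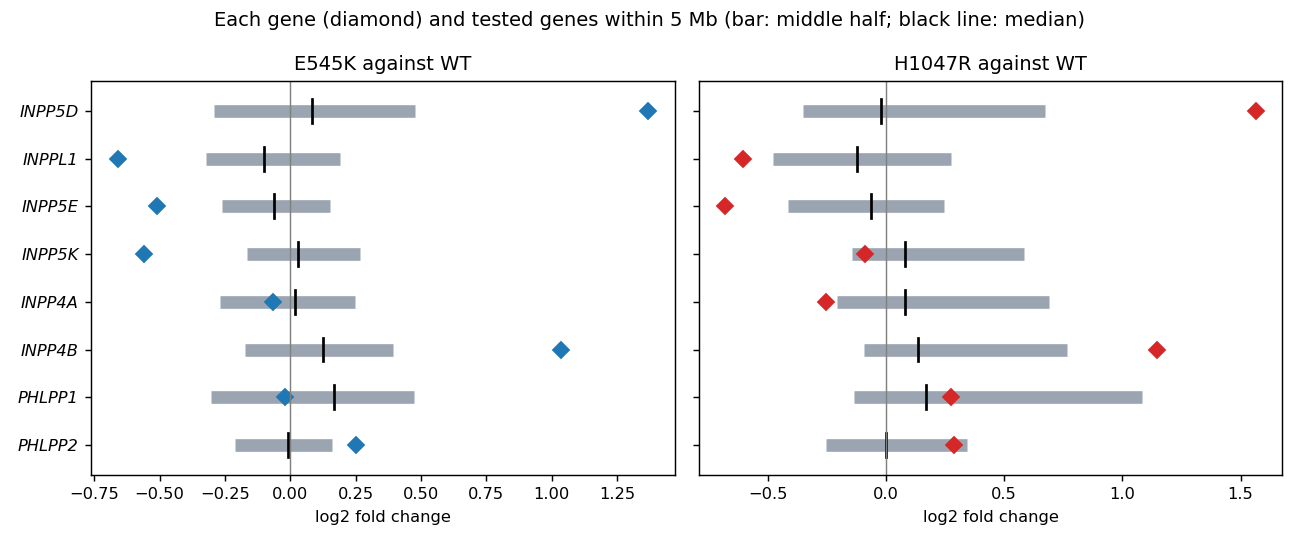
Log2 fold change (horizontal axes) of each of the 8 genes (diamonds) and of the tested genes within 5 Mb on either side (grey bar, middle 50%; black line, median) in E545K against WT (left) and H1047R against WT (right). INPP5D (1.37 and 1.56) and INPP4B (1.04 and 1.14) lie to the right of the grey bar in both panels.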

How the data were processed

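The values are raw read counts per gene that the authors deposited in 2 tables. Per the file headers, featureCounts 2.0.0 counted exons of GENCODE 32 (hg38) without using strand, credited a read to every gene it overlapped, and counted each of the 2 mates of a pair by itself. The submitters' processing notes also list STAR, SAMtools 1.5, FastQC, cutadapt and Trim Galore 0.4.0. Overlapping and antisense genes thus share reads. Of 60609 identifiers, 60295 matched GENCODE 44 names. With edgeR 4.0.16 in R 4.3.3, 1 quasi-likelihood model was fitted to all 9 libraries (genotype, TMM scaling, filterByExpr), and p-values were adjusted by Benjamini-Hochberg over the 26412 genes tested, with a threshold of 0.05. All 8 phosphatase genes passed the filter. CPM uses the TMM-scaled library size. The steps were tested on simulated counts. Alternatives covered DESeq2 1.42.0, scaling, filters, left-out libraries and a replicate block. Permutation tests used scipy 1.17.1. The 8 genes and the related lists were chosen with earlier results of these data known. All 8 were named. From each other list, up to 2 rises and 2 falls per comparison with the largest change among calls with at least 1 CPM could be named, together with PIK3CA, AKT1 and AKT2, and some of these are given. Defining markers of other cell types are named from the marker lists. Some genes are not reported here. Likeness takes the 2 nearest protein-coding genes. Promoters came from RefSeq (GRCh38.p14), where all 8 genes matched.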

Additional observations from a re-analysis of the deposited data

Results flagged for a closer look

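For 5 of the 8 genes the change against WT differed between the knock-in lines by the direct test of H1047R against E545K (edgeR's quasi-likelihood test, 3 libraries in each group). The difference in log2 fold change, H1047R minus E545K, was 0.47 for INPP5K (adjusted p = 4.99e-06), 0.30 for PHLPP1 (adjusted p = 4.19e-05), 0.19 for INPP5D (adjusted p = 5.39e-04), -0.19 for INPP4A (adjusted p = 6.63e-04) and -0.17 for INPP5E (adjusted p = 9.13e-03). In this comparison 53.2% of all tested genes were called. With scaling by library totals alone the INPP5D difference was 0.06 (adjusted p = 0.125 in edgeR). The INPP5E call was lost with upper-quartile scaling, with protein-coding genes only and with no low-count filter (edgeR adjusted p = 0.0605, 0.0887 and 0.0885). The separate table of H1047R goes with the genotype here, and the 2 cannot be told apart.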

How the results depend on the processing

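Each comparison was repeated under 18 alternative settings. The number of the 8 genes called was 6 in each alternative for E545K against WT, 7 to 8 for H1047R against WT and 4 to 7 for H1047R against E545K. With 1 library left out at a time the ranges were 6 to 6, 7 to 8 and 5 to 6. The fit to all 9 libraries pools the spread of groups that differ in it. With only the 6 libraries compared, 6, 7 and 5 genes were called. The SE of INPPL1 in E545K against WT was then 0.020 in place of 0.043. In H1047R against E545K the edgeR adjusted p became 6.28e-03 for INPP5D and 0.0303 for INPP5E, in place of 5.39e-04 and 9.13e-03. Of 432 alternative values for single genes, 414 kept direction and side of the threshold, 9 newly passed it, 4 no longer did and 5 changed sign. All 5 sign changes came with scaling by library totals alone, for values that passed the test neither in the main fit nor under that scaling. They were INPP4A (0.027) and PHLPP1 (0.071) in E545K against WT, and INPP4B (-0.030), INPPL1 (-0.079) and PHLPP2 (-0.10) in H1047R against E545K. With protein-coding genes only, INPP4B (0.17), INPPL1 (0.12) and PHLPP2 (0.10) passed the test in H1047R against E545K (edgeR adjusted p = 1.51e-03, 0.0209 and 0.0369). Scaling by library totals alone has a median shift over all genes of 0.09 in E545K against WT and -0.14 in H1047R against E545K. The cause of that shift was not tested. With H1047R replicate 1 left out, INPPL1 passed the test between the knock-in lines (0.09, adjusted p = 0.0332 in edgeR). Deviations of samples of different groups that share a replicate number had correlations of -0.07 to 0.09. Of 6 libraries, 0 in E545K against WT, 4 in H1047R against WT and 0 in H1047R against E545K correlated best with their own number. A fit with the replicate number as a block called 6, 7 and 5 of the 8 genes, as without it, and over all genes 9441, 14394 and 13731 in place of 9663, 14651 and 14040. Each of the 8 genes had at least 1536 counts in every library.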
